A study of Mus musculus with 36 samples.

Results

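The ErbB family of growth factor receptors and the ligands that bind them were followed in heart, kidney and liver RNA from young male mice. The 10 genes described were 4 receptors (Egfr, Erbb2, Erbb3 and Erbb4) and 6 ligands (Egf, Tgfa, Hbegf, Btc, Nrg1 and Nrg4), of 78239 genes in the count tables. They were chosen by name, with their levels in the 9 groups of libraries already known, so their levels and age differences are given as a description. No p-value of a single member is printed, and members past a threshold are counted beside the share of all genes past it. The mice were wild-type C57BL/6NCrl males on regular chow, purchased at 6 weeks of age, and tissue was taken at 8, 10 or 12 weeks. No experimental treatment or engineered allele was involved. By the study's methods, the mice of all ages were anesthetized with injected ketamine and xylazine and bled before tissue was taken. Each tissue and age was represented by 4 libraries that the methods call biological replicates, 36 in all. By those methods each age had fewer mice than libraries, so some libraries of different tissues came from the same mouse, and values set side by side between tissues are not from independent animals. Between 21031599 and 33637390 read pairs per library were counted on genes. Levels are given as CPM, the pairs of a gene per 1000000 counted pairs of the library, and differences between ages as log2 fold changes with their standard error (SE).

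ErbB receptors are tyrosine kinases of the cell surface that act in pairs. EGFR and ErbB4 bind ligands and have active kinases, ErbB2 has no known ligand and serves as a preferred partner, and ErbB3 binds neuregulins but has a much impaired kinase, so that it signals through its partners. EGF and TGF-alpha bind EGFR, HB-EGF and betacellulin (Btc) bind both EGFR and ErbB4, and the neuregulins bind ErbB3 and ErbB4, NRG4 being known chiefly as an ErbB4 ligand. In the heart, neuregulin-1 from endothelial cells acts on ErbB4 and ErbB2 of cardiomyocytes. In the kidney, the thick ascending limb and distal tubule make the EGF precursor, and in the liver EGFR is a well-known receptor of the hepatocyte.

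The ligands are different proteins that share the EGF motif, a short stretch with 6 cysteines that fold into 3 loops and bind the receptor. The coding sequence of this motif is shown for 5 of the 6 ligands, since it is what makes them members of one family. It was read from the GENCODE vM39 transcripts on GRCm39 and is given 5′ to 3′ on the coding strand, introns removed, with the 6 cysteine codons in capitals.
Egf: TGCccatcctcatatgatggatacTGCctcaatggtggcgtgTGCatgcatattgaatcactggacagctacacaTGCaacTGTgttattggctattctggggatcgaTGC
Tgfa: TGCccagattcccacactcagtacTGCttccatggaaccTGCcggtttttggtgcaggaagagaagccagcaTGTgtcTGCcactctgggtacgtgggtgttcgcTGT
Btc: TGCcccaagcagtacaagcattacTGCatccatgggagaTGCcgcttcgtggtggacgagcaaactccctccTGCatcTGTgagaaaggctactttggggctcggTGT
Nrg1: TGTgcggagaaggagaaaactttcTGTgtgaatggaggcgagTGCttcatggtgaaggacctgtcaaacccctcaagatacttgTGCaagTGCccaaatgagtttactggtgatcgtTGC
Nrg4: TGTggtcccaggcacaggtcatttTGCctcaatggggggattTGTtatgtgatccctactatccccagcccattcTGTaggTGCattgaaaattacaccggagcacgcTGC
Each motif is coded by a pair of neighbouring exons: exons 20 and 21 for Egf (chr3:129479971-129484499, minus strand), 3 and 4 for Tgfa (chr6:86240182-86246942, plus strand), 3 and 4 for Btc (chr5:91510280-91514056, minus strand), 2 and 3 for Nrg1 (chr8:32327726-32339426, minus strand), and 3 and 4 for Nrg4 (chr9:55149461-55188253, minus strand). The stretches were found with a pattern that required gaps of 7, 1 and 8 residues after cysteines 1, 4 and 5. These gaps are therefore the same in all 5 ligands by construction. The pattern allowed 4 or 5 residues between cysteines 2 and 3 and 10 to 13 between cysteines 3 and 4. The gap between cysteines 3 and 4 was 13 residues in Nrg1 and 10 in the other 4 ligands. The gap between cysteines 2 and 3 was 4 residues in Tgfa and Btc and 5 in Egf, Nrg1 and Nrg4. The surrounding precursors ranged from 115 residues for Nrg4 to 1217 for Egf.

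The tissues carried their own markers. Summed over the marker lists, 5 cardiomyocyte genes reached 43950 to 58110 CPM in heart libraries and at most 2.004 CPM elsewhere, 4 hepatocyte genes 67650 to 104900 CPM in liver, and 5 thick limb and distal tubule genes 4723 to 5826 CPM in kidney. Some libraries stood apart in markers of other cells. Replicates 2 and 4 of the 10-week heart carried 15.3 and 21.5 CPM of the hepatocyte genes against at most 3.38 CPM in the other heart libraries. Replicate 2 of the 8-week kidney carried 21.9 CPM of the brown fat gene Ucp1 against at most 8.72 CPM in the others. In liver, 4 neutrophil genes summed to 11.7 CPM in replicate 2 at 10 weeks and 8.63 CPM in replicate 1 at 12 weeks, against at most 2.44 CPM in the remaining libraries. These are whole tissues, so fewer cells of a type and less RNA per cell cannot be told apart.

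**Figure D1:**
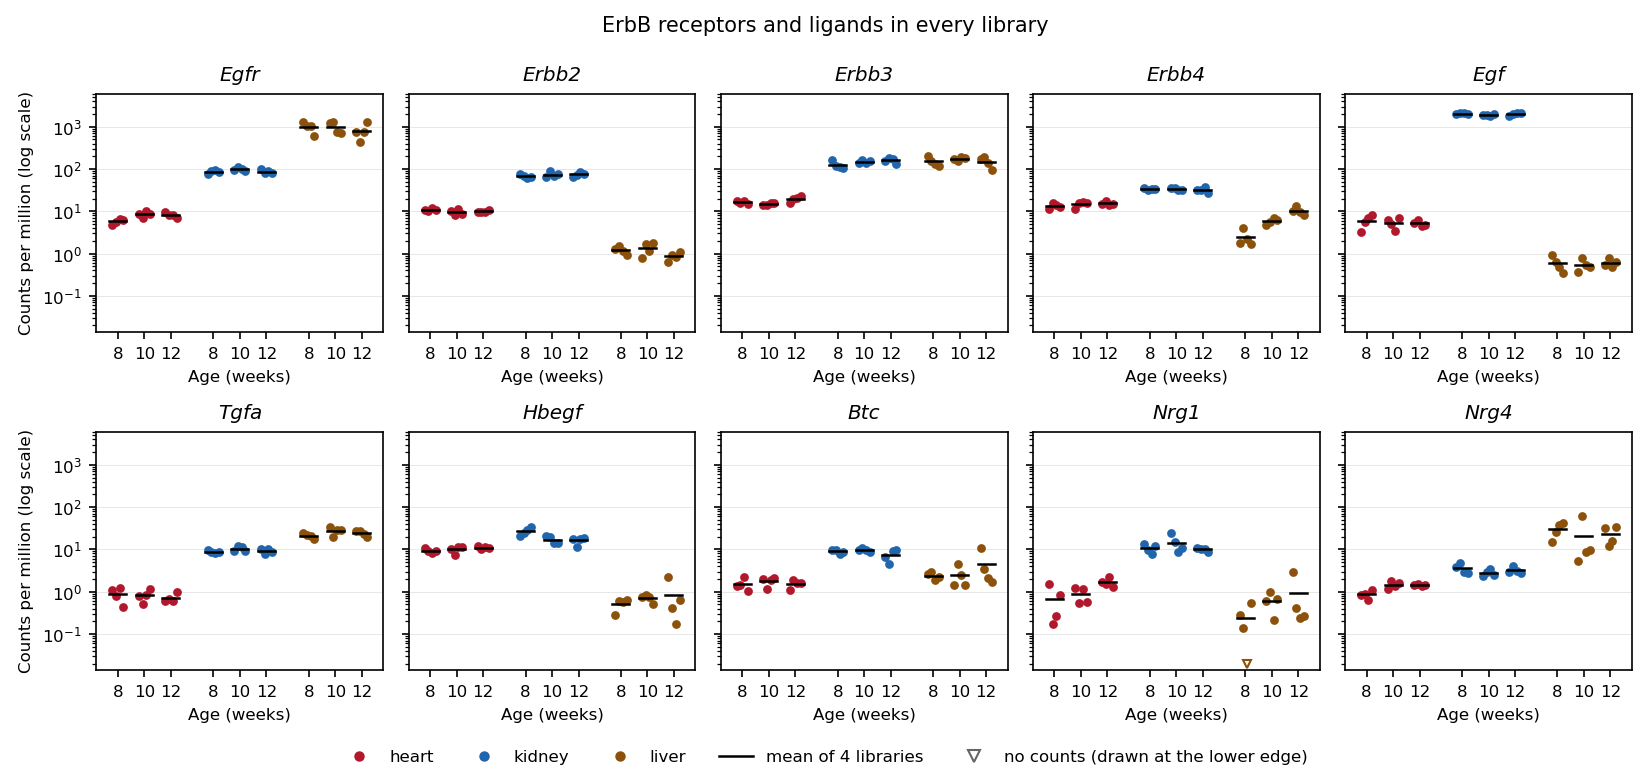
CPM of the 10 genes on a log axis, with a point for each of the 36 libraries and a black line at the mean of each group of 4. Egf in kidney lies around its median of 1989 CPM, Egfr in liver around 896.6 CPM, and Erbb4 in liver is the panel in which the 3 ages separate.

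The receptors were distributed very unevenly over the 3 tissues. Egfr was highest in liver, with a median of 896.6 CPM (423.8 to 1309, n = 12), followed by kidney with 89.5 CPM (76.4 to 111.7) and heart with 7.53 CPM (4.70 to 10.0). No library of one tissue overlapped those of the next, and the liver median was 10.0 times the kidney median and 119.1 times the heart median. Erbb2 had the opposite order at its lower end. Its median was 71.1 CPM in kidney (61.6 to 88.3), 10.4 CPM in heart (8.32 to 11.7) and 1.11 CPM in liver (0.640 to 1.76), where between 19 and 57 pairs per library were counted. Kidney Erbb2 was 64.2 times liver Erbb2, again without overlap.

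Erbb3 was abundant in liver and kidney alike, with medians of 163.2 CPM (96.8 to 207.0) and 146.6 CPM (107.8 to 179.0). These ranges overlapped over most of their length, whereas all heart libraries lay lower, at 13.8 to 22.4 CPM with a median of 15.9 CPM. Erbb4 was highest in kidney, at 32.9 CPM (26.6 to 37.6), and all kidney libraries exceeded those of heart, at 14.7 CPM (11.2 to 17.9). Liver Erbb4 had a median of 5.85 CPM and the widest relative spread of any receptor, from 1.72 to 13.2 CPM, so that its highest library, replicate 2 of 12 weeks, reached into the heart range.

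To compare the receptors with one another, CPM was divided by the length in kilobases of exon sequence that no other gene's exons share. The length covers the exons of all annotated transcripts of a gene, whichever were expressed, so the shares and their order depend on it. On this scale the heart receptors were led by Erbb3, with 42.1% ± 3.69 of the receptor sum (SD, n = 12), followed by Erbb2 with 29.7% ± 3.03, Erbb4 with 17.97% ± 2.30 and Egfr with 10.2% ± 2.18. In kidney the order was Erbb3 with 48.8% ± 3.59, Erbb2 with 28.6% ± 1.96, Egfr with 16.98% ± 2.47 and Erbb4 with 5.62% ± 0.662. In liver, Egfr made up 74.2% ± 8.72 and Erbb3 25.1% ± 8.39, leaving 0.509% ± 0.404 for Erbb4 and 0.204% ± 0.0664 for Erbb2. Erbb2 and Erbb3 together therefore formed the larger part of the receptor sum in heart and kidney but not in liver. The share of Egfr in liver spread widely at 12 weeks, from 53.6% to 87.4%, against 73.5% to 80.5% at 8 weeks.

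**Figure D2:**
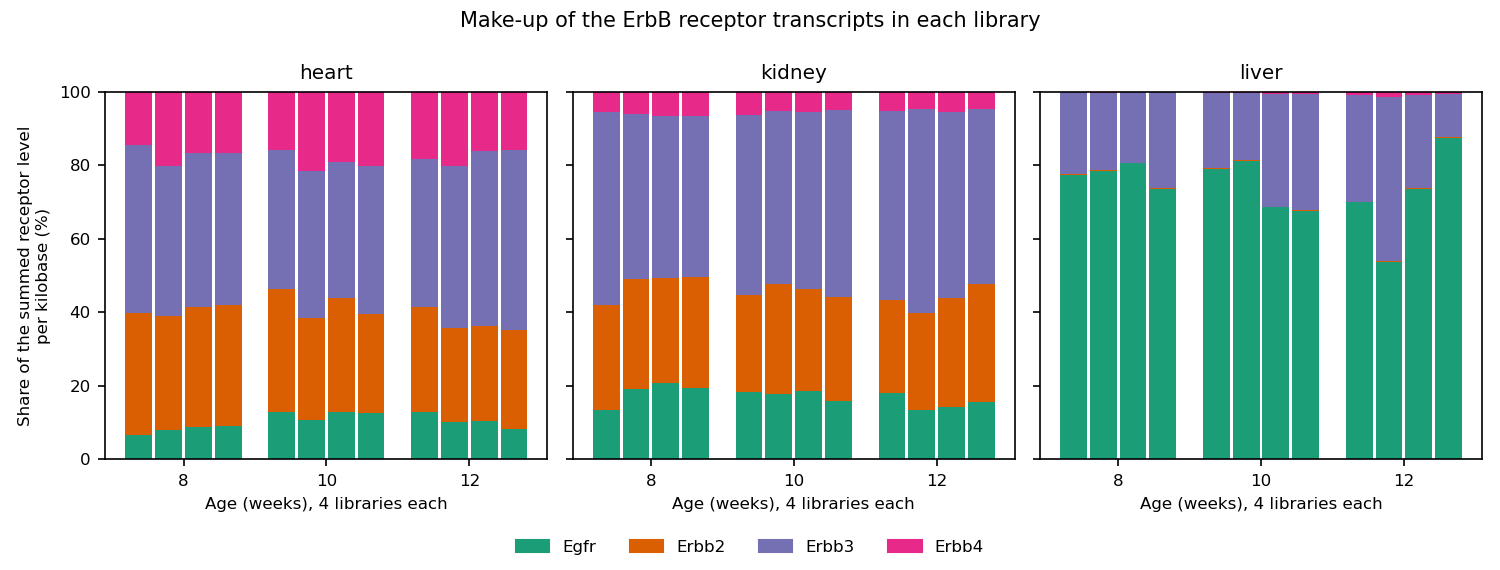
Share of each receptor in the summed level of the 4 receptors per kilobase of unshared exon sequence (percent, vertical axis), with a stacked bar for each library by age in weeks (horizontal axis). Egfr fills 53.6% to 87.4% of the bar in every liver library and at most 20.6% in kidney and 12.9% in heart.

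Among the ligands, Egf in kidney was the most abundant transcript by a wide margin. Its median was 1989 CPM (1747 to 2130), 373.2 times that of heart, where it was 5.33 CPM (3.24 to 8.27), and 3650 times that of liver, where it was 0.545 CPM (0.354 to 0.936) and rested on 8 to 26 pairs per library. Kidney Egf was also the steadiest of the 10 genes in any tissue, with a coefficient of variation of 6.43% over the 12 libraries. Parts of the Egf exons, 10.1% of their bases, overlap antisense genes, and the counting dropped pairs that touched both, so the sum of the counts on each strand was 1.26 times the count used here in kidney.

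Tgfa, the other ligand of EGFR alone, was highest in liver at 23.8 CPM (17.9 to 34.3), with 9.12 CPM in kidney (7.98 to 12.1) and 0.774 CPM in heart (0.427 to 1.21), and the 3 ranges were separate. Hbegf, the heparin-binding ligand that is cleaved from the cell surface, had overlapping levels in kidney (median 18.8 CPM, 11.5 to 33.1) and heart (10.5 CPM, 7.31 to 11.9). It was low in liver (0.610 CPM, 0.174 to 2.19). Btc was highest in kidney at 9.34 CPM (4.62 to 10.7), and its liver range (1.42 to 10.9 CPM, median 2.31) overlapped both kidney and heart (1.05 to 2.23 CPM, median 1.61).

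The neuregulins differed from each other in their main tissue. Nrg1 had a median of 10.6 CPM in kidney (7.69 to 23.8), above every library of heart (1.21 CPM, 0.169 to 2.21) and liver (0.345 CPM, up to 2.90). One liver library of 8 weeks had no Nrg1 pair, which at its depth allows up to 0.143 CPM by counting error alone. Nrg4 was highest in liver at 20.9 CPM, with a wide spread from 5.32 to 61.0 CPM, and was 2.95 CPM in kidney (2.32 to 4.81) and 1.37 CPM in heart (0.625 to 1.79).

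The count of Nrg4 has a limit of its own. Exons of Nrg4 share 13.02% of their bases with other genes, among them Fbxo22 on the opposite strand, an F-box gene with 36029 pairs over the 36 libraries. Pairs touching both genes were dropped from the column used here but assigned in the columns that count 1 strand. The strand columns together gave 9.60 times the Nrg4 count in heart and 11.4 times in kidney, against 1.94 times in liver. The first strand held 49.8% to 50.2% of the pairs assigned by strand in each library, so the libraries do not keep strand. The strand columns therefore also give Nrg4 pairs of Fbxo22, and these ratios do not measure how much Nrg4 was undercounted. For the receptors, Btc and Nrg1 this ratio was at most 1.01, for Tgfa at most 1.06, and for Hbegf at most 1.27.

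Per kilobase of unshared exon, with lengths again taken over all annotated transcripts, the leading ligand differed by tissue. In kidney, Egf stood at a median of 181.0 CPM per kilobase, followed by Hbegf at 4.40, Btc at 2.05, Tgfa at 1.36, Nrg1 at 0.651 and Nrg4 at 0.240. In heart, Hbegf led with 2.46 CPM per kilobase, followed by Egf with 0.485, Btc with 0.353, Tgfa with 0.115, Nrg4 with 0.112 and Nrg1 with 0.0742. In liver, Tgfa led with 3.55 CPM per kilobase and Nrg4 followed with 1.70, while Btc had 0.508, Hbegf 0.143, Egf 0.0496 and Nrg1 0.0212. With TMM factors computed over all 36 libraries, the order of the tissues stayed the same for all 10 genes. Ratios moved, however: liver over kidney became 17.4 for Egfr and 1.92 instead of 1.11 for Erbb3, and kidney over liver became 2.26 instead of 4.04 for Btc.

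The remaining ligands of the family were scarce. Nrg2 had 23 to 66 pairs per heart library, a median of 1.44 CPM, and at most 14 pairs in kidney and 4 in liver. Ereg (epiregulin) reached 38 pairs in liver and at most 7 elsewhere, and Epgn (epigen) at most 7 pairs in heart. Areg (amphiregulin) was at 4 pairs or fewer in all libraries but replicate 1 of the 12-week liver, which had 20. Nrg3 had no pair in any of the 36 libraries, which allows 0.0892 to 0.143 CPM depending on depth.

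The comparison of ages asked whether these genes still moved between 8 and 12 weeks, the late adolescence of the mouse. Genes were tested within each tissue with edgeR's quasi-likelihood test, and called at a Benjamini-Hochberg adjusted p under 0.05 over all genes kept. At 12 against 8 weeks, Erbb4 was called higher in liver, where 0.239% of all genes were called. No member was called in heart, where 4.56% of all genes were called, nor in kidney, where 0.0567% were. Unadjusted p-values of edgeR were under 0.05 for 4 of 10 members in heart, 2 in kidney and 2 in liver, beside 23.4%, 11.7% and 15.1% of all genes. DESeq2 called 1 member in each tissue, Egfr in heart, Hbegf in kidney and Erbb4 in liver, beside 9.74%, 0.737% and 2.89% of all genes. With limma-voom these were Nrg1 in heart, none in kidney and Erbb4 in liver, beside 4.8%, 0.0567% and 0.232% of all genes. Since the members were chosen with these values known, nothing is read from the counts.

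The 10 members had a median log2 fold change of 0.20 in heart, -0.04 in kidney and 0.14 in liver at 12 against 8 weeks, beside medians of 0.00090, 0.0025 and -0.0039 over all genes. The 12-week and 8-week libraries did not overlap for 2 members in heart, 1 in kidney and 1 in liver, beside 12.7%, 6.61% and 8.14% of all genes. At 10 against 8 weeks no member was called in any tissue, with 1.06%, 0.929% and 0.0204% of all genes called in heart, kidney and liver. The same genes were without overlap as at 12 weeks, beside 9.78%, 9.09% and 9.55% of all genes. At those ages the unadjusted p was under 0.05 for 2, 1 and 2 members, beside 15.8%, 16.5% and 14.3% of all genes. DESeq2 called Egfr in heart, Hbegf in kidney and Erbb4 in liver, beside 2.42%, 4.08% and 2.43% of all genes. No member was called by limma-voom, which called 0.707%, 0.992% and 0.0204% of all genes.

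**Figure D3:**
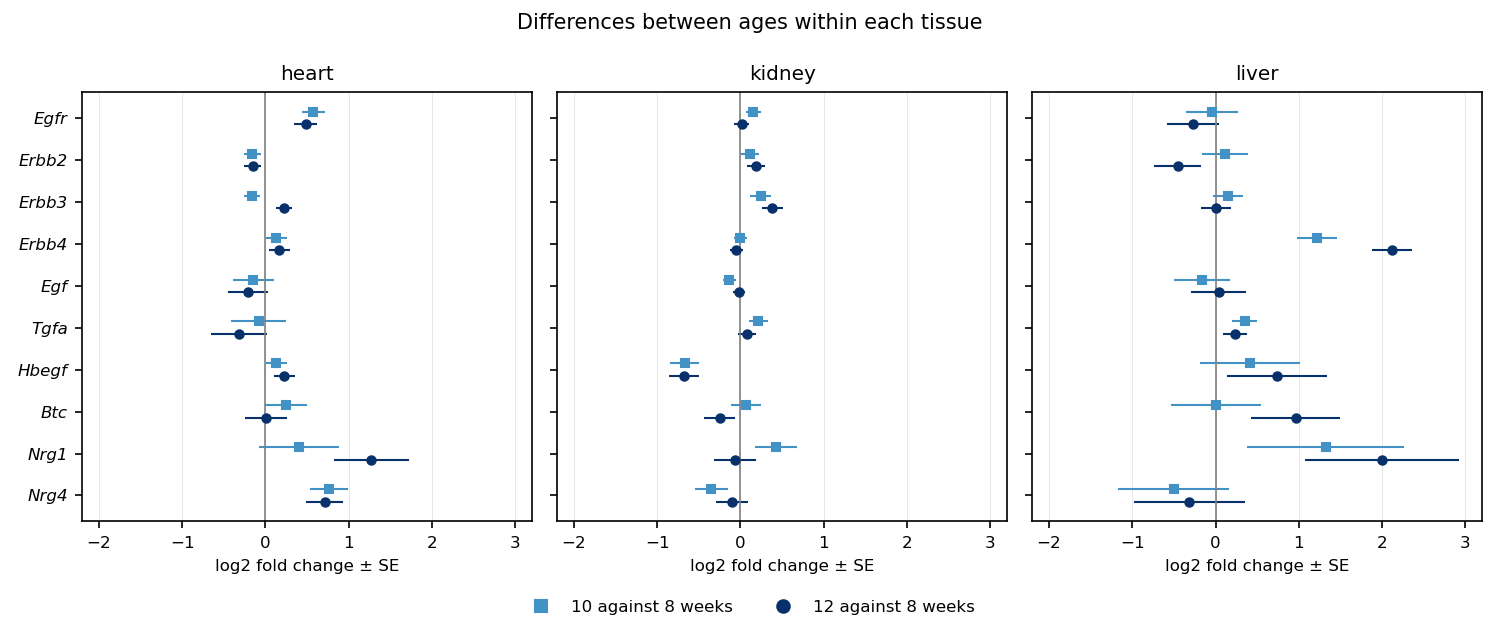
log2 fold change with its SE (horizontal axis) of each gene (vertical axis) at 10 against 8 weeks (squares) and 12 against 8 weeks (circles), in a panel per tissue. Erbb4 in liver has the largest value at 12 weeks relative to its error, 2.12 ± 0.24, and most kidney values lie near 0.

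Erbb4 in liver was the member called. At 8 weeks the 4 libraries had 1.75, 3.97, 2.19 and 1.72 CPM. At 10 weeks they had 4.73, 5.50, 6.82 and 6.19 CPM, and at 12 weeks 10.2, 13.2, 9.38 and 8.36 CPM. Every 10-week library lay above every 8-week library and below every 12-week library. The log2 fold change was 2.12 ± 0.24 (SE) at 12 against 8 weeks, a 4.35-fold difference, and consisted of 1.22 ± 0.24 from 8 to 10 weeks and 0.90 ± 0.22 from 10 to 12 weeks. These values rested on 39 to 359 pairs per library. At 12 against 10 weeks Erbb4 was the liver member without overlap, beside 8.23% of all genes without overlap. It was called by DESeq2, beside 3.68% of all genes, but not by edgeR or limma-voom, which called 0.0545% and 0.075% of all genes. It was the 1 liver member with an unadjusted p under 0.05 at these ages, beside 14.1% of all genes.

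Erbb4 stayed a small part of the liver receptors. Its share per kilobase was 0.177% ± 0.0745 at 8 weeks, 0.419% ± 0.142 at 10 weeks and 0.932% ± 0.419 at 12 weeks (SD, n = 4). In the other tissues its levels overlapped between ages. Heart libraries had 11.2, 15.98, 14.0 and 12.5 CPM at 8 weeks and 14.7, 17.9, 14.2 and 14.8 CPM at 12 weeks, a log2 fold change of 0.17 ± 0.12 with overlap. Kidney libraries had 35.7, 31.96, 33.2 and 33.4 CPM at 8 weeks and 32.6, 31.3, 37.6 and 26.6 CPM at 12 weeks, a log2 fold change of -0.05 ± 0.08.

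Markers of liver cell types did not follow the same course, with a partial exception. The 4 hepatocyte genes summed to 88230 to 104900 CPM at 8 weeks, 67650 to 80930 CPM at 10 weeks and 81060 to 103200 CPM at 12 weeks, and none of the 4 was called at either older age against 8 weeks. The 5 macrophage genes summed to 67.9 to 164.9, 177.0 to 267.4 and 96.2 to 110.1 CPM at the 3 ages, and the 5 endothelial genes to 63.5 to 117.1, 118.3 to 123.4 and 43.2 to 70.6 CPM. The 5 cholangiocyte genes, led by Spp1, summed to 17.2 to 25.2 CPM at 8 weeks, 28.6 to 37.8 CPM at 10 weeks and 24.3 to 36.8 CPM at 12 weeks, with 4 of 5 positive and none called at 12 against 8 weeks and none at 0 in any library. Their part in the Erbb4 result was not tested.

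Genes whose liver levels ran most like Erbb4 over the 12 libraries were found among 11236 named genes with a mean of at least 1 CPM. Car3, a muscle-type carbonic anhydrase also abundant in liver and fat, came first with a Pearson correlation of 0.94, and its mean was 1200 CPM at 8 weeks, 2056 CPM at 10 weeks and 3093 CPM at 12 weeks. Slc49a4 and Dhrs7 followed, with correlations of 0.93 for both. The points share age, depth and dissection, and the coefficients describe these 12 libraries.

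In heart, 2 members were higher at both older ages without overlap. Egfr had 4.70, 5.57, 6.61 and 6.06 CPM at 8 weeks, 8.59, 6.90, 10.0 and 8.75 CPM at 10 weeks, and 9.38, 8.14, 8.33 and 6.92 CPM at 12 weeks. All older hearts lay above the 8-week hearts, and 10 and 12 weeks overlapped. The log2 fold change was 0.58 ± 0.14 at 10 against 8 weeks and 0.48 ± 0.14 at 12 against 8 weeks. Its share of the heart receptors per kilobase went from 8.04% ± 1.03 at 8 weeks to 12.2% ± 1.03 and 10.4% ± 1.90.

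Markers of several other cell types were also higher in older hearts. The 4 fibroblast genes summed to 507.6 to 533.4 CPM at 8 weeks, 599.8 to 769.0 CPM at 10 weeks and 545.8 to 644.6 CPM at 12 weeks, and none was at 0 in any library. Pdgfra and Lum were called higher at both older ages by edgeR (at 12 against 8 weeks, adjusted p = 0.005484 and 0.02981), Dcn and Col1a1 were not. The 4 proximal tubule genes summed to 1.01 to 1.96, 2.58 to 4.40 and 2.59 to 3.73 CPM at the 3 ages, with Slc34a1 at 0 in 9 of the 12 hearts. Of the 2 that could be tested, Lrp2 was called higher at 10 against 8 weeks and neither at 12 against 8 weeks. The 5 cholangiocyte genes summed to 0.983 to 1.78, 2.90 to 4.75 and 1.10 to 2.49 CPM, with Epcam at 0 in 9 hearts, and Krt7 and Krt19 of the 4 tested were called higher at 10 weeks and none at 12 weeks. The part of these markers in the Egfr difference was not tested. Hepatocyte genes were also higher in 2 of the 4 hearts of 10 weeks, as given above. Those 2 hearts, replicates 2 and 4, had Egfr levels of 6.90 and 8.75 CPM. The other 2 hearts of that age, with at most 0.294 CPM of hepatocyte genes, had 8.59 and 10.0 CPM. The part of the hepatocyte genes was not tested either.

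Nrg4 in heart had 0.851, 0.878, 0.625 and 1.09 CPM at 8 weeks, 1.14, 1.79, 1.37 and 1.61 CPM at 10 weeks, and 1.47, 1.53, 1.38 and 1.41 CPM at 12 weeks, from 14 to 43 pairs per library. The older groups lay above the youngest, with log2 fold changes of 0.76 ± 0.23 and 0.71 ± 0.23. In the strand columns, where pairs of the opposite gene Fbxo22 are added, the difference at 12 against 8 weeks was 0.16 and 0.07. The proximal tubule and fibroblast sums given for Egfr were likewise above the 8-week range in all hearts of both older ages, and the cholangiocyte sums in all hearts of 10 weeks. The highest heart Nrg4 levels of 10 weeks, in replicates 2 and 4, came from the 2 hearts high in hepatocyte genes. The 4 brown fat genes summed to 138.4 to 162.1, 174.5 to 202.4 and 144.8 to 202.2 CPM at the 3 ages, with Ucp1 at 0 in every heart. The 3 that could be tested did not move together. At 10 against 8 weeks Ppargc1a rose by 0.45 ± 0.11 on the log2 scale, whereas Cidea (-0.096 ± 0.128) and Cox7a1 (-0.18 ± 0.23) did not. At 12 against 8 weeks the values were 0.16, 0.009 and -0.22 in the same order. None was called at either age. The part of all these markers in the Nrg4 difference was not tested.

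Nrg1 in heart, the ligand of cardiomyocyte ErbB4, was the most scattered of the heart ligands. The 8-week libraries had 1.5, 0.169, 0.268 and 0.816 CPM, the 10-week libraries 1.25, 0.552, 1.17 and 0.578 CPM, and the 12-week libraries 1.69, 1.49, 2.21 and 1.30 CPM. The oldest hearts had the highest levels, but 8-week replicate 1 lay within their range. The log2 fold change at 12 against 8 weeks was 1.27 ± 0.45 on 5 to 66 pairs per library, 1.97 without that library and 0.92 without replicate 2 of 8 weeks. Without replicate 1 the gene was called, as it was with limma-voom, with the counts of the first strand and without the count filter. Against 10 weeks the 12-week libraries were all higher in CPM but overlapped after TMM scaling. The genes most like heart Nrg1 over the 12 libraries, of 11868, were Commd10, Arhgef15 (an endothelial exchange factor) and Nucks1, each with a Pearson correlation of 0.89.

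Erbb3, which pairs with Erbb2 for neuregulin signals, had 17.6, 15.8, 17.5 and 15.2 CPM at 8 weeks, 13.8, 14.1, 15.8 and 15.4 CPM at 10 weeks and 16.02, 19.4, 20.7 and 22.4 CPM at 12 weeks in heart. The 12-week hearts lay just above all 10-week hearts (log2 fold change 0.39 ± 0.10) but overlapped the 8-week hearts (0.23 ± 0.10). No member was called at 12 against 10 weeks in heart, where 0.0396% of genes were called and 6.08% did not overlap. The unadjusted p was under 0.05 for 1 member, Erbb3, beside 11.7% of genes. DESeq2 and limma-voom called no member and 0.503% and 0.033% of genes. Erbb2, Egf, Tgfa, Hbegf and Btc in heart overlapped between all ages, with log2 fold changes from -0.31 to 0.23 at 12 against 8 weeks.

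In kidney, 9 of the 10 members overlapped between all ages. The other was Hbegf, with 20.5, 23.9, 28.7 and 33.1 CPM at 8 weeks, 20.4, 19.3, 14.4 and 13.9 CPM at 10 weeks, and 18, 11.5, 17.9 and 18.4 CPM at 12 weeks. The 8-week kidneys lay above those of both later ages, though by a narrow margin at 10 weeks, and the log2 fold change was -0.67 ± 0.18 and -0.68 ± 0.18. Hbegf shares 16.3% of its exon bases with an antisense gene, and the strand columns gave -0.70 and -0.66 at 12 against 8 weeks. The difference was called by DESeq2 and without the count filter, not in edgeR's fit.

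Egf in kidney had 1987, 2111, 2090 and 2003 CPM at 8 weeks, 1921, 1860, 1786 and 1991 CPM at 10 weeks and 1747, 1973, 2130 and 2105 CPM at 12 weeks. The groups overlapped, and the log2 fold change was -0.02 ± 0.08 at 12 against 8 weeks. The thick limb and distal tubule genes summed to 5272 to 5826 CPM at 8 weeks and 4723 to 5523 CPM at 12 weeks. The genes most like kidney Egf over the 12 libraries, of 12796, were Gosr1, Mms19 and Fam210b, with Pearson correlations of 0.93, 0.91 and 0.91.

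Erbb3 in kidney had a log2 fold change of 0.38 ± 0.12 at 12 against 8 weeks, with 164.4, 115.8, 110.0 and 107.8 CPM at 8 weeks and 155.4, 179.0, 170.6 and 134.0 CPM at 12 weeks. Replicate 1 of 8 weeks lay within the older range, and without it the value was 0.53. Nrg1 in kidney reached 23.8 CPM in replicate 1 at 10 weeks against 14.7, 8.61 and 10.8 CPM in the others. White fat genes summed to 14.7 CPM in that kidney and 2.52 to 6.29 CPM in the others of its age. The highest kidney Nrg4 value, 4.81 CPM, came from replicate 2 of 8 weeks, in which white fat genes summed to 20.4 CPM and Ucp1 was 21.9 CPM. The kidney of the highest Nrg1 had 2.32 CPM of Nrg4, the lowest of the 12. The kidney of the highest Nrg4 had 9.62 CPM of Nrg1, within the range of its age. The part of these markers was not tested. Egfr, Erbb2, Erbb4, Tgfa, Btc, Nrg1 and Nrg4 in kidney overlapped between the 12-week and 8-week libraries, with log2 fold changes from -0.25 to 0.18. At 12 against 10 weeks every kidney member overlapped, beside 8.93% of all genes without overlap. No kidney member was called by edgeR, DESeq2 or limma-voom at these ages, beside 0.482%, 4.98% and 0.47% of all genes, and 0 had an unadjusted p under 0.05, beside 16.4%.

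In liver, Nrg4 spread widely among libraries of the same age. It had 14.9, 25.7, 37.0 and 41.0 CPM at 8 weeks, 5.32, 61.0, 8.89 and 9.52 CPM at 10 weeks, and 32.4, 12.3, 16.01 and 33.8 CPM at 12 weeks. The highest and the lowest of all 12 values both came from 10 weeks, 11.5-fold apart. The log2 fold change at 12 against 8 weeks was -0.31 ± 0.67. At 10 against 8 weeks it was -0.50 ± 0.67, and -1.995 without the library of 61.0 CPM.

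Btc, Hbegf and Nrg1 had in common that replicate 1 of the 12-week liver was the highest of all 12. Btc had 10.9 CPM there, against 3.46, 2.16 and 1.70 CPM in the other livers of 12 weeks and 1.85 to 2.87 CPM at 8 weeks. Hbegf had 2.19 CPM, against 0.405, 0.174 and 0.629 CPM in the others of 12 weeks. Nrg1 had 2.90 CPM, against 0.405, 0.244 and 0.259 CPM. The log2 fold changes at 12 against 8 weeks, 0.96 ± 0.54 for Btc, 0.74 ± 0.60 for Hbegf and 2.00 ± 0.92 for Nrg1, became 0.06, -0.34 and 0.35 without this library. It also held the 20 pairs of Areg. The 4 neutrophil genes summed to 8.63 CPM in it, against at most 1.14 CPM in the other 12-week livers. Of these, S100a8 and S100a9 were at 3.54 and 4.65 CPM, against at most 0.221 and 0.699 CPM. Ly6g, at 0.0337 CPM, lay below the 0.101 CPM that a count of 0 allows there. Replicate 2 of 10 weeks had a higher neutrophil sum of 11.7 CPM. Its Btc, Hbegf and Nrg1 were lower, at 4.40, 0.832 and 0.981 CPM, the next highest of the 12 livers. The Erbb4 level of replicate 1 of 12 weeks, 10.2 CPM, lay by contrast within the range of the other livers of 12 weeks. The part of these cells in the ligand levels was not tested.

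**Figure D4:**
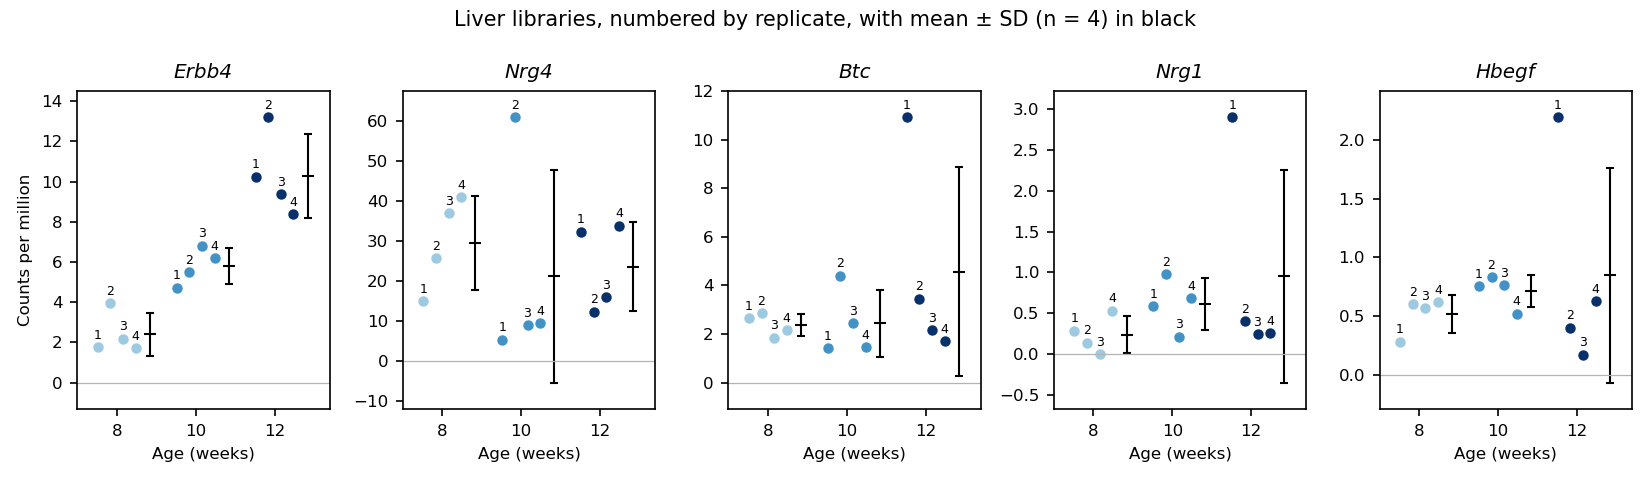
CPM of Erbb4 and 4 ligands in the 12 livers by age in weeks, each point numbered by replicate, with the mean and SD of each age in black. Erbb4 steps up between ages without overlap, Nrg4 scatters within ages, and Btc, Nrg1 and Hbegf have their highest value in replicate 1 of 12 weeks.

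The other liver members overlapped between all ages and were not called, with errors too wide to say that they did not differ. Egfr had 1309, 1035, 1027 and 617.6 CPM at 8 weeks and 744.1, 423.8, 747.4 and 1302 CPM at 12 weeks, a log2 fold change of -0.27 ± 0.31 with full overlap. Tgfa had 24.0, 21.5, 20.9 and 17.9 CPM at 8 weeks and 26.5, 27.3, 23.6 and 19.8 CPM at 12 weeks, a log2 fold change of 0.23 ± 0.15. Erbb2, Erbb3 and Egf had log2 fold changes of -0.45 ± 0.29, 0.01 ± 0.18 and 0.04 ± 0.33.

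A list of 62 further genes of the pathway was followed beside the members: 5 other ligands, 7 genes of ligand release, 15 inhibitors or genes of receptor turnover, 26 adaptors and transducers and 9 response genes. In heart, 7 of the 56 tested were called by edgeR at 12 against 8 weeks, 1 higher and 6 lower, which is 12.5% beside 4.56% of all genes. The median log2 fold change of the list was 0.01, beside 0.00090 over all genes. The list was drawn up with results of these data known, and the count changed with single libraries. It was 4 without replicate 2 of 8 weeks, 1 without replicate 3 or 4 of 8 weeks or replicate 3 of 12 weeks, 3 without replicate 1 or 2 of 12 weeks, and 13 without replicate 4 of 12 weeks.

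The heart genes that fell included both inactive rhomboid proteins, partners of the ligand-shedding protease ADAM17. Rhbdf1 fell from 31.97 ± 1.41 to 24.3 ± 2.21 CPM after TMM scaling (SD, n = 4, log2 fold change -0.39 ± 0.08, adjusted p = 0.01917). Rhbdf2 fell from 14.9 ± 1.16 to 11.4 ± 1.06 CPM (-0.39 ± 0.09, adjusted p = 0.03109). Neither gene's groups overlapped. Errfi1, which encodes the feedback inhibitor MIG6 of EGFR, fell from 37.8 ± 7.40 to 24.9 ± 5.28 CPM (-0.61 ± 0.16, adjusted p = 0.03641) with overlap.

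Pik3r2, a regulatory subunit of PI3-kinase, fell from 33.6 ± 0.286 to 24.9 ± 2.26 CPM (-0.43 ± 0.08, adjusted p = 0.00716), and was the gene that stayed called without any single library. Of the response genes, Etv5, a transcription factor induced through ERK, fell by 0.48 on the log2 scale (adjusted p = 0.03672) and the early response gene Ier3 by 0.64 (adjusted p = 0.04406). Ccnd1, which encodes cyclin D1, rose from 23.2 ± 2.47 to 33.4 ± 5.12 CPM (0.53 ± 0.13, adjusted p = 0.03525). At 10 against 8 weeks in heart, Etv5 was the 1 gene called by edgeR of 56 tested (-0.82 ± 0.12, adjusted p = 0.004026), beside 1.06% of all genes.

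In kidney, edgeR called 0 of 56 pathway genes at 12 against 8 weeks, beside 0.0567% of all genes. The unadjusted p was under 0.05 for 9, beside 11.7% of all genes. Neither DESeq2 nor limma-voom called any, beside 0.737% and 0.0567% of all genes. The lowest unadjusted p-values belonged to Ccnd1 (log2 fold change -0.41 ± 0.11, adjusted p = 0.2213) and Adam17, the shedding protease (-0.14 ± 0.05, adjusted p = 0.3386). At 10 against 8 weeks 2 of 56 genes were called, beside 0.929% of all genes, and both were on the list of response genes. Egr1, an early response transcription factor, rose from 6.99 ± 2.25 to 29.1 ± 19.9 CPM (2.06 ± 0.44, adjusted p = 0.04411), and Ccnd1 fell from 213.0 ± 29.5 to 146.7 ± 7.62 CPM (-0.54 ± 0.11, adjusted p = 0.04181).

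In liver, where Erbb4 differed, edgeR called 0 of 55 pathway genes at 12 against 8 weeks, beside 0.239% of all genes. The unadjusted p was under 0.05 for 5, beside 15.1% of all genes. DESeq2 called 1 and limma-voom none, beside 2.89% and 0.232% of all genes. The lowest unadjusted p-values were those of Stat5a, a transcription factor that acts downstream of growth hormone and of ErbB4 (0.82 ± 0.20, adjusted p = 0.1027), and of the growth gene Myc (2.11 ± 0.79, adjusted p = 0.2481). The median over the list was -0.0040, close to that of all genes, -0.0039. In simulated counts with the spread of these livers, a 2-fold change was called for 63.0% of the changed genes and a 4-fold change for 93.8%. The changed genes were drawn at random from all genes kept, and more changes were planted than were called in the real livers. These shares therefore do not say how many changes of the pathway genes would have been called.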

How the data were processed

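Per the labels, polyA RNA of heart, kidney and liver was sequenced as read pairs of 150 bases. Per the submitters' processing notes and the methods, the authors checked reads with FastQC 0.11.9, trimmed them with cutadapt 4.2 and aligned them with STAR 2.7.11b to GRCm39 with an Ensembl annotation. The authors deposited raw counts of pairs per gene, without normalization, as a column that ignores strand, which was used, and 1 more per strand. STAR counts only pairs with a single place and a single gene. The libraries do not keep strand, so a strand column holds part of a gene's pairs and is not a strand-specific count.

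Gene names and exon lengths came from GENCODE vM39 on GRCm39, which named 78168 of 78239 identifiers. Per tissue, genes with a mean count of at least 10 in an age group and 2 or more libraries above 0 were kept (15137, 17649 and 14672 in heart, kidney and liver). TMM factors and edgeR 4.0.16 (glmQLFit and glmQLFTest, R 4.3.3) with a mean for each of the 3 ages gave all differences, with Benjamini-Hochberg adjustment. All 10 members passed the filter in all tissues. The common coefficient of variation between libraries was 0.119, 0.113 and 0.206 for these tissues. Alternatives were RLE factors, other filters, DESeq2 1.42.0, limma-voom (limma 3.58.1), 2 ages only, a replicate block, the strand columns and each library left out. Shares of all genes called by DESeq2 are over the genes to which it gave an adjusted p. The scaling over all 36 libraries was added after the data were seen. A bound for a count of 0 used 3 counts and covers counting error only.

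The members and gene lists were chosen with earlier results of these data known. Named are all members, pathway genes called at 12 against 8 weeks (at most 8 per tissue, or the 2 with the lowest unadjusted p), the other ligands, and the 3 genes most like Erbb4 in liver, Nrg1 in heart and Egf in kidney. Genes named at 10 against 8 weeks, the markers singled out and Fbxo22 were chosen after their values were seen. On simulated data, edgeR called 76.8%, 78.6% and 63.0% of genes changed 2-fold in heart, kidney and liver at 12 against 8 weeks. Among all genes called there, 6.95%, 8.95% and 3.14% were unchanged ones. In heart and kidney this share was above the adjusted p threshold of 0.05. Figures used matplotlib 3.10.9.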

Additional observations from a re-analysis of the deposited data

Results flagged for a closer look

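Of the 90 groups of 4 libraries formed by the 10 genes, 3 tissues and 3 ages, 6 had a library whose gap to the rest exceeded Dixon's 95% critical value. Chance alone flags about 1 in 20 such groups. In liver, Nrg4 at 10 weeks reached 61.0 CPM in replicate 2 against 5.32 to 9.52 CPM in the others, and Nrg1 at 12 weeks reached 2.90 CPM in replicate 1 against 0.244 to 0.405 CPM. Hbegf in liver at 8 weeks was 0.285 CPM in replicate 1 against 0.571 to 0.619 CPM, a matter of 7 pairs against 12 to 17. In kidney, Hbegf at 12 weeks was 11.5 CPM in replicate 2 against 17.9 to 18.4 CPM, and Erbb3 at 8 weeks was 164.4 CPM in replicate 1 against 107.8 to 115.8 CPM. In heart, Erbb4 at 12 weeks was 17.9 CPM in replicate 2 against 14.2 to 14.8 CPM.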

How the results depend on the processing

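Erbb4 in liver at 12 against 8 weeks was called in all 22 settings, with a log2 fold change of 1.99 to 2.45. At 10 against 8 weeks it was called in 3 and at 12 against 10 weeks in 2. In heart 0 members were called at 12 against 8 weeks, but DESeq2 and limma-voom called 1 each, beside 9.74% and 4.8% of all genes. The first strand counts called 1 and no count filter 2. In kidney 0 members became 1 with DESeq2, beside 0.737% of all genes, and 2 with no count filter. Leaving out a library gave 0 to 1 members in heart. The pathway genes called in heart went from 7 to 1 to 13 with a library left out and to 5 to 10 in the other alternatives. In kidney no count filter gave 2 pathway genes instead of 0. In liver no count filter gave 2, and DESeq2 gave 1 instead of 0, beside 2.89% of all genes. For settings other than edgeR's main fit, DESeq2 and limma-voom, the share of all genes called was not computed, so nothing is read from those counts. The cause of the differences between settings was not tested. Replicate numbers of different ages belong to different animals, and the deviations of same-numbered libraries correlated from -0.27 to 0.17. A replicate block left the members called at 0, 0 and 1 in heart, kidney and liver and the pathway genes at 8, 0 and 0. Of 1256 fold changes of members under the alternatives, 1246 moved by less than the spread between replicates, and 20 of the 60 changed sign in at least 1 setting, all of them not called. Egf in liver could not be fitted in the strand columns. Members with few pairs, such as Nrg1 in heart and liver and Egf, Hbegf and Erbb2 in liver, are limited by counting error.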

Other observations

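Library numbers run in parallel over the tissues, and the labels do not say whether equal numbers mark 1 animal. The deviations of same-numbered libraries from their age means, over all genes kept in both tissues, correlated from 0.032 to 0.17 between heart and kidney, from -0.006 to 0.157 between heart and liver and from 0.061 to 0.258 between kidney and liver. The library numbered 10, replicate 2 of 10 weeks, had the highest sum of 4 neutrophil genes of its age in every tissue: 11.04 CPM in heart against 1.61 to 1.89 CPM, 1.24 CPM in kidney against 0 to 0.233 CPM, and 11.7 CPM in liver against 0.889 to 1.72 CPM. Its Nrg4 level was the highest of its age in heart (1.79 CPM) and liver (61.0 CPM) but not in kidney (2.93 CPM, where replicate 3 had 3.39 CPM). The genes most like Btc over the 12 livers, a comparison chosen after the values were seen, were Notch2, Il1rn and Frmd6, with Pearson correlations of 0.94, 0.94 and 0.93. The Btc values rest largely on replicate 1 of 12 weeks.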
